A study of Homo sapiens with 8 samples.

Results

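The genes described here are the interleukins and their receptors, as measured by bulk RNA-seq in 2 human acute myeloid leukemia (AML) lines with and without knockdown (KD) of PRMT9, an arginine methyltransferase. Members were chosen by symbol: an IL number with at most one letter and further digits, or an IL number followed by R and a receptor suffix, without IL8 and pseudogenes. The rule found 77 of the 57992 genes of the Molm13 table, and all 77 identifiers were also in the THP1 table of 58174 genes. By function, 40 members are ligands, 34 are receptor chains, and 2 are receptor antagonists (IL1RN and IL36RN). IL4I1 also matched the rule, but it encodes an enzyme rather than an interleukin. The rule does not catch shared or decoy chains with other symbols, such as IL6ST, EBI3 and IL18BP, which are described separately at the end.

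Molm13 and THP1 are monocytic AML lines that carry KMT2A (MLL) fusions. Cells of both arms received doxycycline (Dox), which induced either a control hairpin (shCtrl, genotype WT) or a hairpin against PRMT9 (shPRMT9, PRMT9 knockdown). Each of the 4 groups held 2 poly(A) libraries, 8 in all, with 18720950 to 27356870 counted reads per library. Neither the duration of induction nor separate cultures are given in the sources used here, so the tests measure the spread between these libraries, which may be technical. Each line is a single established line, numbers 1 and 2 of shPRMT9 may be replicates or hairpins, and THP1 library names contain the letters OCI, which other leukemia lines bear. PRMT9 was lower in every shPRMT9 library: its counts were 332 and 289 in shCtrl and 41 and 56 in shPRMT9 Molm13 cells, and 317 and 352 against 60 and 68 in THP1 cells.

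Interleukins are secreted signals between leukocytes, and each acts through a receptor built from a specific chain and, usually, a chain shared across a family. Monocytes and macrophages are major producers of the IL-1 family, in which IL1B and IL18 are made as precursors that caspase-1 cleaves, and IL1RN blocks the IL-1 receptor. The common γ chain family (IL-2, IL-4, IL-7, IL-9, IL-15, IL-21) signals mostly to lymphocytes, although its receptor chains are also found on myeloid cells.

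Levels are given as read counts or as RPKM (reads per kilobase of exon, scaled to library depth), the scale on which genes can be compared with each other. Log2 fold changes compare shPRMT9 with shCtrl within a line and are given with their SE (standard error). FDR stands for the p of edgeR's quasi-likelihood test after Benjamini-Hochberg adjustment over all genes tested. A gene was called when its FDR was below 0.05, its fold change exceeded 1.5 in either direction and its RPKM exceeded 1 in at least one library of the line. In bulk RNA, fewer cells that express a gene and less RNA per cell cannot be told apart.

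Most members were silent or close to it. In Molm13 cells, 25 members had no count, 26 had too few counts to be tested, and 26 were tested, of which 20 exceeded an RPKM of 1. The 25 include IL3RA and IL9R, whose listed 0 is no measure of their expression, as described below. In THP1 cells, 18 had no count, 26 had too few, and 33 were tested, of which 22 exceeded an RPKM of 1. The 12 members without a count in any library were IL2, IL3, IL4, IL9, IL17A, IL20, IL21, IL25, IL26, IL36A, IL1F10 and IL36RN, many of them known mainly from lymphocytes or epithelium. A count of 0 allows a level of up to 3 counts, or 0.108 to 0.160 CPM (depth-scaled counts) depending on the library. This bound does not apply to IL3RA and IL9R in Molm13. The highest count of an untested member was 18 in Molm13 (IL23R) and 8 in THP1 (IL17D). IL6, the archetypal macrophage cytokine, had no count in Molm13 cells and counts of 0, 0, 1 and 3 in THP1 cells, so no change was detectable at this depth. Receptors were expressed far more widely than ligands: 18 of 34 receptor chains were tested in Molm13 and 24 in THP1, against 6 and 7 of 40 ligands.

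**Figure D1:**
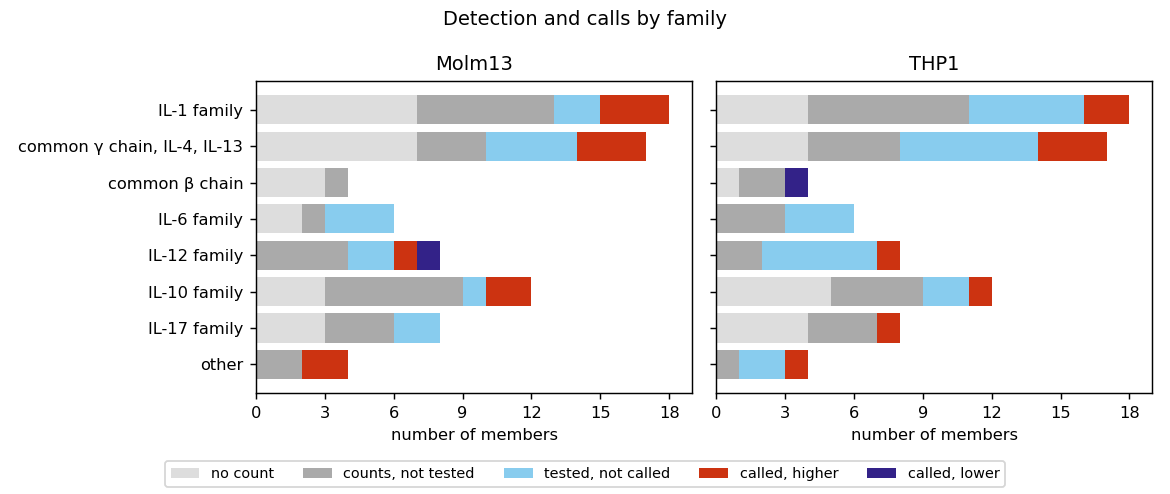
Number of members (horizontal axis) in each cytokine family (vertical axis) for Molm13 (left) and THP1 (right), split into those with no count, those with too few counts for a test, those tested but not called, and those called higher or lower in shPRMT9 cells. Of the 77 members, 26 in Molm13 and 33 in THP1 were tested, and calls were spread over most families.

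The most abundant member in both lines was IL6R, the ligand-binding chain of the IL-6 receptor. Its level in shCtrl cells was 58.2 ± 0.458 RPKM in Molm13 and 59.1 ± 2.10 RPKM in THP1 (SD, n = 2). It was followed by IL17RA, the shared signaling chain of the IL-17 receptors, at 30.8 ± 0.709 and 27.5 ± 0.928 RPKM. Next came IL13RA1, which pairs with IL4R to bind IL-13, at 14.1 and 13.8 RPKM in the control libraries of Molm13 and 11.2 ± 0.0712 RPKM in THP1, and IL10RB, the shared chain of the IL-10 family, at 7.28 ± 0.158 and 14.4 ± 0.671 RPKM. IL6R, IL17RA and IL13RA1 were separated by more than their spread in each line. IL10RB stood above IL13RA1 in THP1, whereas in Molm13 it did not differ beyond the spread from IL27RA (7.90 ± 0.657 RPKM). IL12RB2, the signaling chain of the IL-12 receptor, separated the lines clearly. Its counts were 707, 759, 597 and 613 in the 4 THP1 libraries and 0, 0, 0 and 1 in the Molm13 libraries.

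In Molm13 cells, 11 members rose and 1 fell, and in THP1 cells 9 rose and 1 fell. The 11 members that rose in Molm13 were 42.3% of the 26 tested, whereas the share of all genes tested that rose was 11.4%. In THP1, the 9 were 27.3% of 33, beside 3.83% of all genes tested. The single member that fell in each line, IL12A in Molm13 and IL3RA in THP1, stood against 11.3% and 2.39% of all genes tested. Among genes above the RPKM minimum, the shares called higher were 13.6% in Molm13 and 5.21% in THP1, and the shares called lower were 13.5% and 3.25%. The median log2 fold change over the tested members was 0.63 in Molm13 and 0.34 in THP1, with medians near 0 over all genes tested (0.00047 and -0.00063). Since a gene may pass the filter on low counts through the higher group alone, these medians describe only the members tested. The counts of shPRMT9 libraries, scaled to depth, both exceeded those of both shCtrl libraries for 19 of 26 members in Molm13 and 18 of 33 in THP1, against 41.5% and 29.7% of all genes tested. Both lay below both controls for 4 members in Molm13 and 5 in THP1, against 40.5% and 36.8% of all genes tested.

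Of the 15 members called in at least one line, 7 rose in both lines: the ligand IL1B, the antagonist IL1RN, the enzyme IL4I1 and the receptor chains IL7R, IL21R, IL10RA and IL12RB1. Another 5 were called in Molm13 alone (IL18, IL16, IL2RG and IL10RB, which rose, and IL12A, which fell), and 3 in THP1 alone (IL15RA and IL17RA, which rose, and IL3RA, which fell). No member was called in opposite directions. A call in one line alone does not show a difference between lines, which was tested separately.

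**Figure D2:**
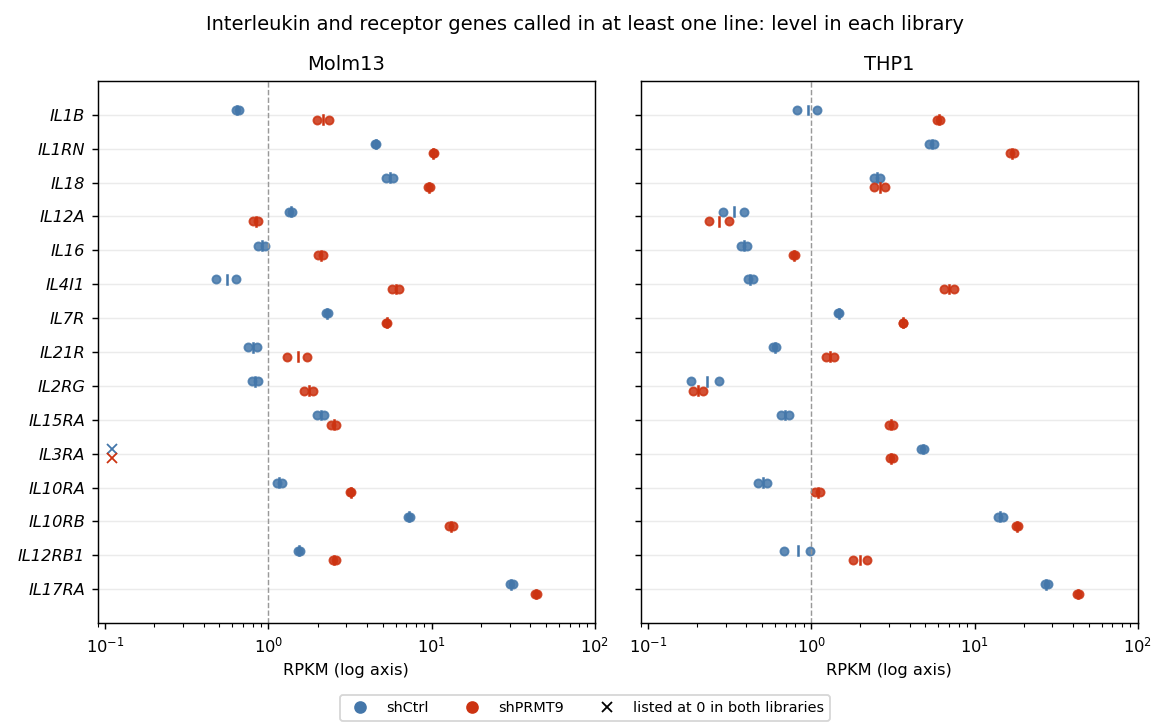
Level (RPKM, log axis) of the 15 members called in at least one line in each shCtrl library (blue) and shPRMT9 library (red) of Molm13 (left) and THP1 (right); short bars mark the mean of 2 libraries, crosses mark genes listed at 0, and the dashed line marks an RPKM of 1. IL4I1 moved furthest in both lines, from 0.554 to 6.03 RPKM in Molm13 and from 0.424 to 6.98 RPKM in THP1.

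Among the ligands, IL1B changed most. This gene (ENSG00000125538; chromosome 2, 112829751 to 112836903, minus strand, hg38) encodes interleukin-1β, a principal inflammatory cytokine of monocytes. Molm13 controls held 40 and 40 counts and the KD libraries 136 and 131, which correspond to 0.646 ± 0.0196 against 2.17 ± 0.254 RPKM (SD, n = 2). The log2 fold change was 1.74 (SE 0.18, FDR = 1.1e-11). In THP1 cells there were 86 and 70 against 481 and 455 counts, or 0.948 ± 0.191 against 6.04 ± 0.177 RPKM (SD, n = 2), and the log2 fold change reached 2.68 (SE 0.12, FDR = 1.4e-16). The groups did not overlap in either line, and the gap between them was wider than the spread within each. IL1A, which encodes the other IL-1 agonist, was not tested, with at most 4 counts per library.

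IL1RN (ENSG00000136689; chromosome 2, 113107214 to 113134016, plus strand), which encodes the secreted antagonist of the same receptor, was the more abundant of the pair. Counts were 304 and 288 in shCtrl and 619 and 716 in shPRMT9 Molm13 cells, a log2 fold change of 1.17 (SE 0.07, FDR = 1.4e-18). In THP1 cells they were 472 and 480 against 1441 and 1338, a log2 fold change of 1.64 (SE 0.06, FDR = 5.6e-18). Thus, agonist and antagonist rose together, and the antagonist remained the higher at 10.2 ± 0.120 against 2.17 RPKM in Molm13 and 17.0 ± 0.723 against 6.04 RPKM in THP1 (SD, n = 2).

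The promoters of these 2 genes are shown because both rose in both lines and each holds one of 3 motifs that were searched on both strands: GAAANNGAA, the core of the interferon-stimulated response element (ISRE); TTCNNNGAA, the gamma-activated site (GAS) bound by STAT factors; and GGANNTTCC, a κB site. Sequences are from RefSeq on GRCh38.p14, read 5′ to 3′ on the strand of the gene, with the motif in capitals.
IL1RN, chr2:113127239-113127488, plus strand, the 250 bases before an internal start site, overlapping no exon: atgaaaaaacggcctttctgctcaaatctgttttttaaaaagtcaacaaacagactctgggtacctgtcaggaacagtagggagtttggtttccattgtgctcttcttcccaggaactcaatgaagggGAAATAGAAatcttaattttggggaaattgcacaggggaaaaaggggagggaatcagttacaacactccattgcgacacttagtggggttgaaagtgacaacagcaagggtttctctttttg
IL1B, chr2:112836904-112837029, minus strand, 126 bases upstream of the exons: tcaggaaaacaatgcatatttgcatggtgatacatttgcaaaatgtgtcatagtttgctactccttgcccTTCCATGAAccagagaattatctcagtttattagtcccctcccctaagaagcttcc
The IL1RN window holds the ISRE core and the IL1B window the GAS motif. A match is a description of the letters and not a site of binding.

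IL18, the other ligand that caspase-1 releases, rose in Molm13 cells, where 312 and 269 reads were counted in the controls and 469 and 544 after KD. The log2 fold change was 0.80 (SE 0.08, FDR = 2.7e-12). In THP1 cells the counts were 163, 193, 160 and 186, and the groups overlapped (log2 fold change 0.05, SE 0.13, FDR = 0.78). The 2 chains of its receptor were near the limit of detection. IL18R1, the binding chain, had 53 and 45 counts in shCtrl and 13 and 17 in shPRMT9 Molm13 cells (log2 fold change -1.70, FDR = 1.8e-06) but stayed under an RPKM of 1. It was not distinguishable in THP1 cells (0.14, SE 0.40). The gene span of IL18R1 includes much of IL1RL1 on the same strand, which held 2 counts over the Molm13 libraries.

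IL16, a chemoattractant for CD4+ cells made as a long precursor, had counts of 214 and 225 in shCtrl and 488 and 519 in shPRMT9 Molm13 cells, a log2 fold change of 1.20 (SE 0.08, FDR = 8.4e-17). In THP1 cells the counts were 115 and 135 against 234 and 240, a log2 fold change of 1.02 (FDR = 9.6e-08). The difference between lines was -0.17 (SE 0.15, FDR = 0.42), but the THP1 level, 0.783 ± 0.0219 RPKM (SD, n = 2) in shPRMT9 cells, lay under the RPKM minimum.

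IL12A, the p35 subunit of IL-12 and IL-35, was the one ligand called lower. Molm13 controls held 56 and 56 counts and the KD libraries 33 and 35, so that the log2 fold change was -0.72 (SE 0.23, FDR = 0.0055). The call was lost with DESeq2's Wald test (adjusted p = 0.107) and when shPRMT9-2 was left out (FDR = 0.061). IL12A-AS1, which lies on the opposite strand, had 126 and 112 counts against 173 and 193 in the same libraries and was called higher (log2 fold change 0.62). The strand setting of the counting is not given in the sources used here, so reads of these 2 genes cannot be told apart. In THP1 cells IL12A had 12 to 22 counts, and its groups overlapped. Of the other IL-12 family ligands, IL23A had 17 to 45 counts across all 8 libraries, and its groups overlapped in both lines, whereas IL12B and IL27 had at most 4 counts in any library.

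The largest change of any member was in IL4I1 (ENSG00000104951; chromosome 19, 49889654 to 49929539, minus strand), a secreted oxidase that breaks down phenylalanine and other aromatic amino acids and is made by macrophages, dendritic cells and B cells. In Molm13 cells 33 and 24 reads were counted in the controls and 275 and 346 after KD, a log2 fold change of 3.44 (SE 0.15, FDR = 1.3e-23), or 10.8-fold. In THP1 cells they were 29 and 29 against 483 and 413, a log2 fold change of 4.04 (SE 0.15, FDR = 1.7e-18), or 16.4-fold. The groups were far apart in both lines. The gene span overlaps that of NUP62 on the same strand over 22715 bases. The fold change of NUP62 was 0.878 in Molm13 and 1.00 in THP1, and a part of shared reads in the IL4I1 counts was not tested. ATF5 overlaps it on the opposite strand over 838 bases, with 1714 counts over the Molm13 libraries and 7413 over the THP1 libraries. The change of ATF5 was not examined, and the strand setting of the counting is not given. The promoter window of IL4I1 in RefSeq held none of the 3 motifs.

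Of the common γ chain receptors, IL7R and IL21R rose in both lines. IL7R, the specific chain for IL-7, had counts of 279 and 275 against 596 and 690 in Molm13 (log2 fold change 1.21, SE 0.07, FDR = 8.8e-19). In THP1 the counts were 228 and 250 against 560 and 548 (1.31, SE 0.09, FDR = 6.2e-13). For IL21R, the specific chain for IL-21, counts were 84 and 91 against 176 and 152 in Molm13 (log2 fold change 0.91, SE 0.15, FDR = 5.9e-07) and 85 and 89 against 169 and 188 in THP1 (1.13, SE 0.14, FDR = 2.9e-07). Of their ligands, IL7 had at most 2 counts per library and IL21 had none.

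IL15RA (ENSG00000134470; chromosome 10, 5943639 to 5978187, minus strand), which binds IL-15 and presents it to neighboring cells, responded differently in the lines. In THP1 cells 61 and 74 reads were counted in the controls and 291 and 270 after KD, or 0.693 ± 0.0546 against 3.08 ± 0.132 RPKM (SD, n = 2). The log2 fold change was 2.15 (SE 0.13, FDR = 2.5e-13). In Molm13 cells the counts were 148 and 155 against 164 and 202, a log2 fold change of 0.27 (SE 0.12, FDR = 0.038). This smaller difference lay under the fold limit, and it did not pass the FDR when shCtrl-1 or shPRMT9-2 was left out (FDR = 0.20 and 0.22). IL15 itself had 6 to 13 counts per library in THP1 cells and at most 3 in Molm13 cells.

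Short windows around the motifs in the promoters of IL15RA and IL7R are shown for comparison with those above, again on the strand of the gene and with the motif in capitals.
IL15RA, chr10:5977587-5977615, minus strand, ISRE core, within the 5′ UTR or coding sequence of some transcripts: aagcaaaagcGAAAGCGAAtgcgactggc
IL15RA, chr10:5978155-5978183, minus strand, GAS, within the 5′ UTR of some transcripts: gcagcaggaaTTCGGCGAAgtggcggagc
IL7R, chr5:35856697-35856725, plus strand, κB: ggggctgcagGGAATATCCaggaggaaca
RefSeq windows (250 bases before to 50 after a start) were matched for 61 of the 77 members. Of the 11 matched members that rose in at least one line, 2 (IL1RN and IL15RA) held the ISRE core, each at one site read in 2 overlapping windows, 3 held the GAS motif and 1 the κB motif, whereas of all 27305 genes with a window the shares were 9.86%, 9.38% and 5.57%. Over the 61 matched members, called or not, the shares were 23.0%, 18.0% and 16.4%.

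The shared γ chain itself, IL2RG, had 49 and 43 counts in shCtrl and 97 and 97 in shPRMT9 Molm13 cells (log2 fold change 1.08, SE 0.19, FDR = 2.1e-06). In THP1 cells it had 13 to 21 counts and its groups overlapped. IL2RB, the β chain shared by the IL-2 and IL-15 receptors, differed in opposite directions at low levels. Its counts were 10 and 17 against 46 and 50 in Molm13 (log2 fold change 1.82, FDR = 1.3e-06) and 18 and 30 against 10 and 6 in THP1 (-1.47, FDR = 0.0087). It was not called in either line, since its RPKM did not exceed 0.523 in any library. IL2RA, the α chain of the IL-2 receptor, had at most 2 counts. IL4R, which binds IL-4, was 1.45-fold higher in Molm13 and 1.36-fold higher in THP1, past the FDR (7.2e-11 and 1.9e-06) but under the fold limit. Its partner IL13RA1 had a log2 fold change of 0.07 in Molm13 (SE 0.05) and -0.36 in THP1 (FDR = 6.4e-06), also under the limit.

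Both chains of the IL-10 receptor were higher in shPRMT9 cells. IL10RA, the ligand-binding chain found mainly on leukocytes, had counts of 200 and 179 against 485 and 546 in Molm13 (log2 fold change 1.44, SE 0.08, FDR = 2.2e-19) and 112 and 107 against 231 and 213 in THP1 (1.11, SE 0.13, FDR = 5.7e-08). IL10RB had counts of 666 and 658 against 1083 and 1316 in Molm13 (log2 fold change 0.86, SE 0.05, FDR = 4.2e-18). In THP1 cells, with 1620 and 1878 against 2117 and 2018, its difference passed the FDR (1.4e-06) but at 0.34 on the log2 scale lay under the fold limit. IL10, which encodes the ligand, had 1 count in total over the 8 libraries. IL20RB, a chain of the IL-20 and IL-24 receptors, had 16 to 42 counts, and its groups overlapped in both lines.

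IL12RB1, the chain shared by the IL-12 and IL-23 receptors, rose in both lines. Its counts were 138 and 127 against 199 and 238 in Molm13 (log2 fold change 0.72, SE 0.11, FDR = 4.1e-07) and 108 and 81 against 237 and 192 in THP1 (1.27, SE 0.15, FDR = 1.0e-07). MAST3, which overlaps its gene span on the opposite strand, was called higher in Molm13 (log2 fold change 1.08). In THP1 the log2 fold change of MAST3 was -0.17, and a part of shared reads in the IL12RB1 counts was not tested. In THP1 the partner chains were not called higher, and in Molm13 both had too few counts for the test. IL12RB2 in THP1 cells had a log2 fold change of -0.18 (FDR = 0.034), and IL23R, the specific chain for IL-23, had counts of 251, 308, 263 and 229 there, with overlapping groups. For IL27RA, the specific chain for IL-27, the log2 fold change was 0.22 in Molm13 (FDR = 0.0065) and 0.25 in THP1 (FDR = 0.057).

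IL17RA counts were 5592 and 5535 in shCtrl and 7478 and 8308 in shPRMT9 Molm13 cells, and 6529 and 6755 against 9692 and 9807 in THP1 cells. The groups were well separated in both lines, and the log2 fold change was 0.51 in Molm13 (SE 0.03, FDR = 6.0e-21) and 0.65 in THP1 (SE 0.03, FDR = 2.1e-15). The THP1 value lay above the 1.5-fold limit and the Molm13 value, 1.42-fold, below it, so the call in THP1 alone separates 2 neighboring values. IL17RB, the other IL-17 receptor chain among the members, had at most 2 counts.

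Other abundant receptors moved little. IL6R had 7629 and 7391 counts against 5582 and 6402 in Molm13, lower past the FDR but under the fold limit (log2 fold change -0.33, FDR = 6.0e-15), and in THP1 the log2 fold change was -0.03 (FDR = 0.44). IL1RAP, the accessory chain of the IL-1 and IL-33 receptors, was 1.27-fold higher in Molm13 and 1.29-fold higher in THP1, past the FDR (1.9e-09 and 1.5e-06) but under the fold limit. The signaling receptor chain itself, IL1R1, had at most 2 counts in Molm13 cells and an RPKM of 0.403 ± 0.0477 in shCtrl THP1 cells (SD, n = 2), with a log2 fold change of 0.50 (FDR = 0.021). IL31RA, a receptor chain of the IL-6 family, exceeded an RPKM of 1 only in THP1, where its log2 fold change was 0.33 (FDR = 0.035). The remaining tested members (IL15, IL18RAP, IL32 and IL9R in THP1, IL17D in Molm13) had 6 to 23 counts per library, and IL18RAP alone passed the FDR there (8 and 8 against 22 and 16 counts, FDR = 0.020).

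**Figure D3:**
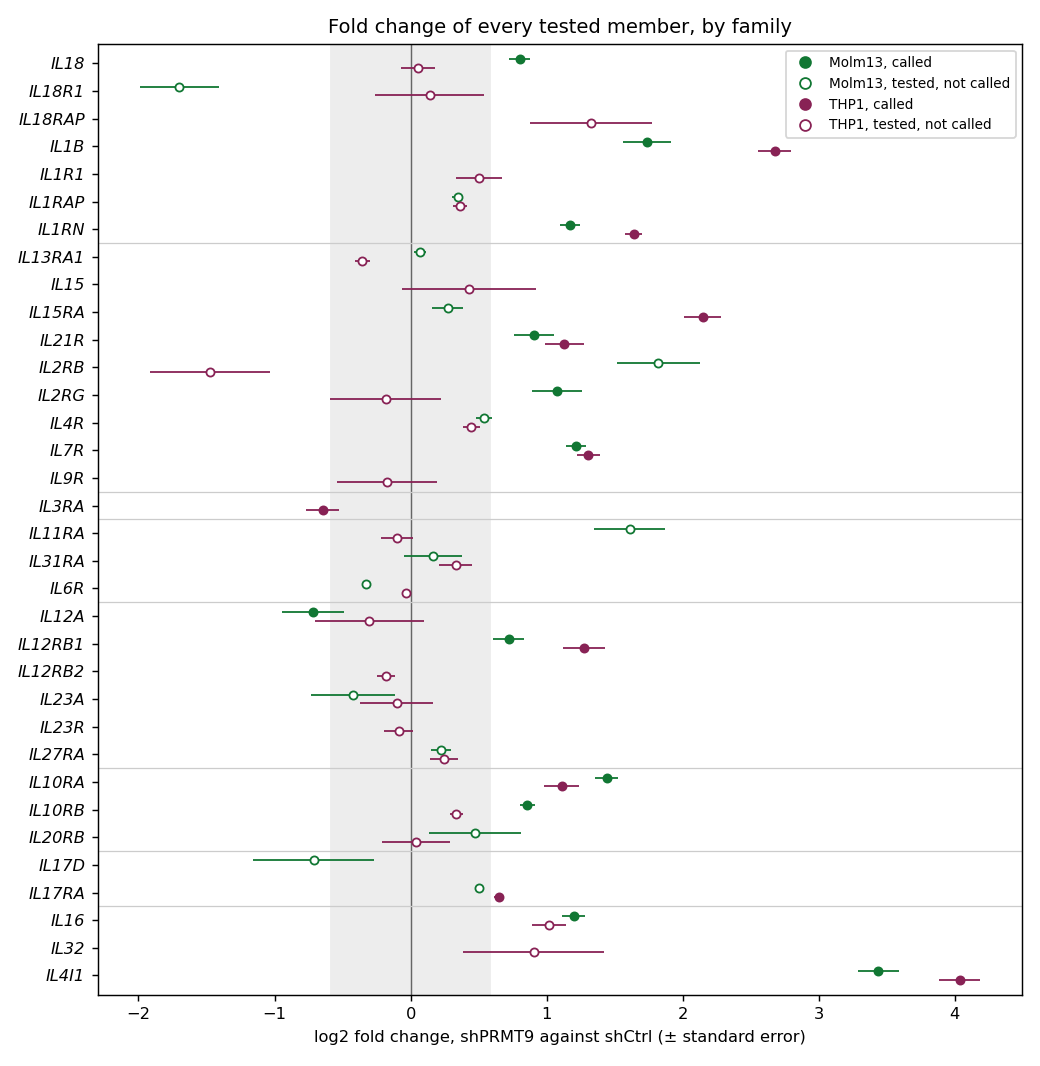
Log2 fold change of shPRMT9 against shCtrl (horizontal axis, ± standard error) for each member tested in Molm13 (green) or THP1 (purple), grouped by family; filled points were called, and the gray band spans a change of up to 1.5-fold in either direction. IL4I1 lies furthest to the right in both lines (3.44 and 4.04), and the open points outside the band belong to genes that missed the FDR limit or the RPKM minimum.

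IL3RA (ENSG00000185291; CD123), the specific chain of the IL-3 receptor and a marker of AML blasts, fell in THP1 cells. The controls held 207 and 234 counts and the KD libraries 130 and 134, or 4.82 ± 0.139 against 3.08 ± 0.0971 RPKM (SD, n = 2). The log2 fold change was -0.64 (SE 0.12, FDR = 9.7e-05). In Molm13 cells IL3RA is listed at 0 in every library. This gene and IL9R lie in the pseudoautosomal regions, which the X and Y chromosomes share. Of 45 pseudoautosomal genes in both tables, 2 had any count in Molm13 (4 counts in all), whereas 34 did in THP1 (133874 counts). The listed 0 of IL3RA and IL9R in Molm13 thus came with the near absence of counts from this whole class of genes, for which the cause was not tested, and it is no measure of their expression. Its promoter window carried 2 closely spaced GAS motifs upstream of the start, and this stretch is shown because IL3RA was the one receptor called lower. The rest of the window held a further GAS motif and an ISRE core just after the start, and the window of IL12A, the one ligand called lower, also held an ISRE core just after the start.
IL3RA, chrX:1336586-1336614, plus strand, 2 GAS motifs, with the same sequence on Y: TTCAAAGAAagagtctttctTTCAAGGAA

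The effect of shPRMT9 was then compared between the lines in a fit of all 8 libraries, for the 34 members that passed its filter. Among these, IL3RA and IL9R could not be called, since both are listed at 0 in Molm13 (SE 1217 and 402). The effect was higher in THP1 for 2 members, IL15RA and IL1B, and higher in Molm13 for 4, IL11RA, IL18, IL23R and IL2RG, beside 9% and 8.78% of all genes tested. These shares (2 and 4 of 34) are near those of all genes. For IL15RA the difference in log2 fold change, THP1 minus Molm13, was 1.89 (SE 0.19, FDR = 2.9e-15), and for IL1B it was 0.95 (SE 0.24, FDR = 5.5e-04). For IL18 the difference was -0.73 (SE 0.15, FDR = 1.6e-05). IL1RN, the antagonist, had a difference of 0.48 (FDR = 5.6e-05), under the fold limit.

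The other 3 calls rested on low counts in one line. IL11RA, the specific chain of the IL-11 receptor, had 30 and 14 counts in shCtrl and 55 and 80 in shPRMT9 Molm13 cells, and 226, 318, 221 and 253 counts in THP1 cells, where the groups overlapped. The difference was -1.70 (SE 0.28, FDR = 2.0e-07), and it moved to -2.35 without shCtrl-1 of Molm13. GALT, which overlaps IL11RA on the same strand over 334 bases, was also called higher in Molm13 (log2 fold change 1.33) and had a log2 fold change of 0.02 in THP1. IL23R had 4 and 3 against 9 and 18 counts in Molm13, with a difference of -1.99 (FDR = 0.0021) that did not pass without shPRMT9-2 of Molm13 (FDR = 0.089). For IL2RG the difference was -1.25 (FDR = 0.015), which did not pass without shCtrl-2 of THP1 (FDR = 0.18) or with DESeq2's Wald test (adjusted p = 0.060). IL2RB, whose changes had opposite signs, had a difference of -3.28 (SE 0.54, FDR = 1.5e-07), but no library exceeded the RPKM minimum. The IL-18 receptor chains IL18R1 (1.85, FDR = 0.0015) and IL18RAP (2.75, FDR = 0.0035) also passed the FDR and were uncalled for the same reason. For IL4I1, the difference was 0.61 (SE 0.29, FDR = 0.086), and for IL7R it was 0.11 (SE 0.12, FDR = 0.54). Neither passed the test, which does not show that the effects were equal.

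**Figure D4:**
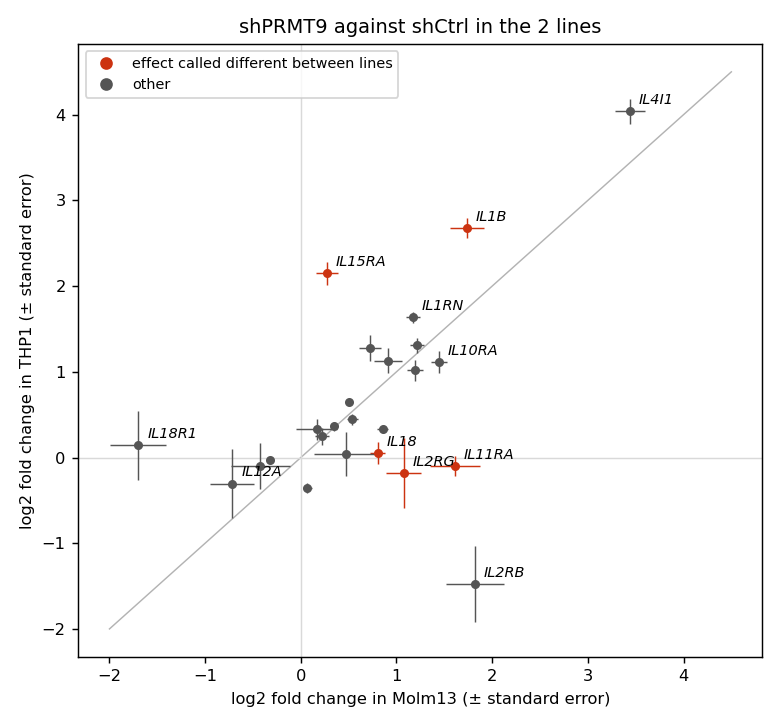
Log2 fold change in THP1 (vertical axis) against that in Molm13 (horizontal axis), each ± standard error, for the 25 members tested in both lines; red points are members whose effect was called different between lines, and the line marks equal effects. IL15RA and IL1B lie above the line, IL18, IL2RG and IL11RA below it, and IL4I1 lies in the upper corner.

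Receptor partners and decoys with other symbols were then examined as a list of 16 genes. Of these, CSF2RA and CRLF2 are pseudoautosomal like IL3RA, and their near absence of counts in Molm13 is likewise no measure of their expression. In Molm13, 10 were tested, 2 rose, beside 11.4% of all genes tested, none fell, and the median log2 fold change was 0.98. The 2 were SIGIRR (1.47), an inhibitory receptor of the IL-1 family, and CSF1R (2.06), the receptor for IL-34 and M-CSF. In THP1, 14 were tested, 4 rose, beside 3.83% of all genes tested, none fell, and the median was 0.39. These were IL6ST (0.64), the gp130 signaling chain of IL-6 and IL-11, EBI3 (3.50), a subunit of IL-27 and IL-35, IL17RC (0.60), the partner of IL17RA, and CSF1R (1.03). SIGIRR in THP1 had a log2 fold change of -0.14, and IL18BP, the decoy that binds IL-18, had 0.49 in Molm13 and 0.25 in THP1, uncalled in both. CSF2RB, the β chain that pairs with IL3RA, was uncalled at 0.11 in Molm13 and -0.20 in THP1. In Molm13, IL17RC (1.09), IL17RD (3.22), IL17RE (0.87) and OSMR (2.51) passed the FDR but stayed under an RPKM of 1. By the FDR alone, 8 were higher and 1 lower there, beside 33.4% and 33.5% of all genes tested. EBI3 in THP1 had only 9 and 2 counts in shCtrl, against 47 and 72 in shPRMT9. Its Molm13 counts, 4 and 1 against 5 and 15, were too few for a test.

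A list of 24 genes for the processing of IL-1β and IL-18 and for signaling by their receptors gave 4 genes that rose and 1 that fell of 22 tested in Molm13 (median log2 fold change 0.42), and 7 that rose and none that fell of 23 in THP1 (median 0.17). Of all genes tested, 11.4% rose and 11.3% fell in Molm13, and 3.83% rose and 2.39% fell in THP1. CASP4 (0.82 in Molm13 and 0.62 in THP1), an inflammatory caspase, MEFV (1.47 and 0.82), which encodes the inflammasome sensor pyrin, and CARD16 (0.88 and 0.77), an inhibitor of caspase-1, rose in both lines. CARD8 (0.98), an inflammasome sensor, rose in Molm13. CASP1 (0.68), NLRC4 (1.41) and NAIP (0.65), which form the flagellin-sensing inflammasome with caspase-1, rose in THP1, as did MYD88 (1.09), the adaptor of the IL-1 receptor. CASP1 had a log2 fold change of 0.57 in Molm13, just under the fold limit. NLRC4 (1.63, FDR = 8.5e-07) and NAIP (1.70, FDR = 6.0e-07) were also higher in Molm13, uncalled because their RPKM stayed under 1. The same held in Molm13 for the sensor NLRP1 (1.77, FDR = 6.5e-16), which had -0.83 in THP1 (FDR = 0.13). IRAK1 (-1.19), the kinase recruited by MYD88, fell in Molm13. The inflammasome sensor NLRP3 and the adaptor PYCARD were well expressed in both lines and were called in neither.

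Markers of cell identity were read beside these results. Of 12 myeloid and monocytic markers, 10 were tested in Molm13. There 5 rose (LYZ, ITGAM, CSF1R, CD68 and ITGAX) and none fell, beside 11.4% and 11.3% of all genes tested. The summed level of all 12 went from 592 to 596 RPKM in shCtrl to 869 to 870 RPKM in shPRMT9 libraries. In THP1, all 12 were tested, 6 rose (the same 5 and CD14) and MPO fell, beside 3.83% and 2.39% of all genes tested. The sums there were 1346 to 1365 against 2043 to 2130 RPKM. LYZ, which encodes lysozyme, made up most of the rise in both sums. In Molm13, MPO and FCGR1A were lower past the FDR but uncalled (log2 fold changes -0.56 and -0.44). CD14 and CD163 had too few counts for a test in Molm13. Several members are themselves genes of monocytes and macrophages, and the part of this marker change in the rise of IL1B, IL1RN, IL4I1 and the receptors was not tested. Of the T and NK cell markers, NCAM1 alone exceeded an RPKM of 1, and none was called. Of the B cell markers, PAX5 had 4.54 RPKM in Molm13 shCtrl cells and rose in THP1 (log2 fold change 2.03), with summed levels of the list of at most 4.78 RPKM. The erythroid, platelet, epithelial and fibroblast markers summed to at most 0.375 RPKM per list.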

How the data were processed

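Poly(A) RNA-seq libraries of Molm13 and THP1 cells, 2 per group, were analyzed. The submitters' processing notes name TopHat2 2.0.8, HTSeq 0.11.2, edgeR 3.30.3 and hg38. The authors deposited unnormalized counts of reads per gene in one table per line. The annotation and the strand setting are not given in the sources used here. All later steps were run in R 4.3.3, with DESeq2 1.42.0, limma 3.58.1 and edgeR 4.0.16. Each line was fitted alone over all genes (TMM, filterByExpr, quasi-likelihood test, Benjamini-Hochberg adjustment, 16446 genes in Molm13 and 16294 in THP1), and all 8 libraries together for the difference between lines (19288 genes). The call limits (FDR below 0.05, 1.5-fold, RPKM above 1) follow the study's methods. RPKM values of both lines used exon lengths from the Molm13 table. SEs were taken from each fold change and its F value. Members, lists and motifs were chosen with earlier results of these data known. Named are all members called or differing between lines, the other members above an RPKM of 1, low members by counts, and called genes of the lists; low members given singly, and uncalled genes of the lists, were chosen after their values were seen. Counts were simulated with 200 genes changed 2-fold and the same spread for all genes. Of the changed genes, 177 passed the FDR limit in Molm13, 165 in THP1 and 134 for the difference between lines. Of the unchanged genes, 5, 6 and 7 passed it. All 77 members had an identifier in GENCODE release 29, 72 with the same start and end. The alternatives were DESeq2 size factors, no filter, DESeq2's Wald test, a replicate block, other call limits, a common fit and leaving out each library. Protein sequences were not used here.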

Additional observations from a re-analysis of the deposited data

Results flagged for a closer look

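Members whose response to shPRMT9 differed between the lines in the test of the difference itself deserve a closer look, each given as the log2 fold change in THP1 minus that in Molm13. The difference was 1.89 for IL15RA and 0.95 for IL1B, both higher in THP1. It was -0.73 for IL18, -1.25 for IL2RG, -1.70 for IL11RA and -1.99 for IL23R, all higher in Molm13. Over 12 alternative settings, including each library left out, the FDR stayed below 0.05 for IL15RA, IL1B, IL18 and IL11RA but not for IL23R and IL2RG.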

How the results depend on the processing

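The number of members called depended mainly on the call limits. With the FDR alone, 18 rose and 3 fell in Molm13, beside 33.4% and 33.5% of all genes tested. In THP1, 16 rose and 4 fell, beside 19% and 18.6% of all genes tested. The effect was then higher in THP1 for 8 and higher in Molm13 for 7, beside 4404 and 3738 of the 19288 genes tested. With a 2-fold limit, 7 rose and 0 fell in Molm13, beside 796 and 506 of the 16446 genes tested. In THP1, 8 rose and 0 fell, beside 312 and 88 of the 16294 genes tested. The effect was higher in THP1 for 1 and higher in Molm13 for 3, beside 529 and 809 of 19288 genes. DESeq2's Wald test gave 0 that fell in Molm13, where IL12A missed the limit, and leaving out each library gave 0 to 1, with 0 without shPRMT9-2. For the partner list, the genes that fell in Molm13 ranged from 0 to 1 over the libraries left out, with 1 without shCtrl-2 or shPRMT9-2. Signs turned only among THP1 changes that were not called, when a library was left out: on the log2 scale IL11RA ranged from -0.27 to 0.10 (0.0029 without shPRMT9-1), IL18 from -0.070 to 0.17 (-0.0082 without shCtrl-1), IL23R from -0.18 to 0.0032 and IL2RG from -0.43 to 0.14. The replicate numbers did not pair the libraries (correlation of deviations -0.0743 in Molm13 and -0.0224 in THP1), and with the replicate block 11 rose and 1 fell in Molm13, 9 rose and 1 fell in THP1, and 2 and 4 differed between lines, the same counts as without it. With 2 libraries per group no outlying library can be identified, and depth limits the members under about 20 counts.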
